A study of Mus musculus with 9 samples.

Results

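Bone morphogenetic protein (BMP) signalling and its Id targets were followed in D3-pOct4 mouse embryonic stem cells through 9 genes: the ligand Bmp4, the receptor Bmpr1a, the signal carriers Smad1 and Smad5, the inhibitors Smad6 and Smad7, and the targets Id1, Id2 and Id3. They were taken as every probe set of the Affymetrix mouse genome array whose single gene symbol in the platform annotation is one of these names, which gave 21 probe sets of the 45101 on the array, and 9 genes of the 18194 that a single symbol names. The cells grew for 7 days in serum-containing medium in 3 conditions. The first had no leukemia inhibitory factor (LIF) and 2 µM DETA/NO, an adduct that releases nitric oxide (called DETA/NO below). The second had no LIF and no donor (no LIF), and the third had 1000 U/ml of LIF, a cytokine that acts through STAT3 (LIF). Each condition has 3 arrays, replicates 1, 2 and 3, at passages 31, 33 and 34 of 1 cell line, which carries its pOct4 name in all 3 conditions. The labels give no further account of how separate the cultures were, so p-values measure only the spread between these arrays.

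BMP ligands bind pairs of type I and type II receptor kinases, and the type I receptor phosphorylates Smad1 and Smad5, which enter the nucleus with Smad4. Smad6 and Smad7 are inhibitory Smads that are themselves induced by the signal and block it. Id proteins are helix-loop-helix proteins without a DNA-binding region: they pair with E proteins and keep them from activating differentiation genes. In mouse embryonic stem cells, BMP4 acting through Id genes can support self-renewal together with LIF.

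Id2 and Id3 had the highest Pearson correlation of the 36 pairs of members over the 9 arrays (r = 0.865), although Bmp4 and Smad7 led by Spearman's, so the promoter windows of these 2 Id genes are shown, each with 250 bases before and 50 bases after the transcription start, from RefSeq on GRCm38.p6. The Id2 window lies on the minus strand at chr12:25096043-25096342 and the Id3 window on the plus strand at chr4:136143572-136143871. Capitals mark the Smad-type motifs GGCGCC and GTCT, searched on both strands, so a match on the other strand to GTCT reads as its reverse complement.
Id2: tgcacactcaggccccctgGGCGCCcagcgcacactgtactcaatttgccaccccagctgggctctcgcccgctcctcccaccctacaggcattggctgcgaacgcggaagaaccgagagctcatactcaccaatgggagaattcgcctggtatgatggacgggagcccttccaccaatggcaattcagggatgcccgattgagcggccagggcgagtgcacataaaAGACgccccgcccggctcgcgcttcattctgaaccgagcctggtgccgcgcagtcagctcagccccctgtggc
Id3: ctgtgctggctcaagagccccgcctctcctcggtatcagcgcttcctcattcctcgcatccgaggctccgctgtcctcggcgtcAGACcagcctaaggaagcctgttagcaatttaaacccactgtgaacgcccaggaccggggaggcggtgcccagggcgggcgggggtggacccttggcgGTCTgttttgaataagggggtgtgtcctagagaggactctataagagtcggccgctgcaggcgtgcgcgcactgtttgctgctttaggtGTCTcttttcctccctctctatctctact
The Id2 window holds 1 GGCGCC, 231 bases before the start, and 1 GTCT match, 23 bases before it. The Id3 window holds no GGCGCC and 3 GTCT matches, 166 and 68 bases before the start and 21 bases after it. Of 32851 windows of this length in the same table, 11.9% hold GGCGCC and 88.0% hold GTCT, so a GTCT match is the usual case. Windows were used for 7 of the 9 members. GGCGCC was in a window of 3 of them (Id2, Bmpr1a and Smad5), and GTCT in a window of 6, all but Smad1. A match is a string of letters and does not show a bound factor.

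Every array carries the same scaling, and defining markers of undifferentiated stem cells were read on all of them: Pou5f1 958 to 3211, Nanog 271 to 1339.6 and Sox2 1510.3 to 3866. Signals are arbitrary units, and a level can be compared between arrays for 1 probe set but not between probe sets. The array medians were 20.8 to 23.3 on DETA/NO replicates 1 and 2 and LIF replicate 1, and 13.9 to 17.8 on the other 6 arrays. Socs3, a feedback inhibitor induced by LIF through STAT3, goes against the labels on both replicate 2 arrays. Its signal was 95.8, 405 and 127 on DETA/NO replicates 1 to 3, 102, 3054 and 329.8 on no LIF replicates 1 to 3, and 3213, 282 and 1794 on LIF replicates 1 to 3. The arrays labelled no LIF replicate 2 and LIF replicate 2 are kept as labelled, and values without them are given beside Bmp4, Smad7 and the Id genes. Other genes of LIF signalling ran the same way on these 2 arrays. Stat3, which carries the LIF signal, read 530.0 on no LIF replicate 2 and 256 on LIF replicate 2, and the LIF receptor gene Lifr read 734 and 257. Il6st, also of LIF signalling, differed less, at 330 and 283 on the same 2 arrays. The primed epiblast marker Fgf5 was at 0.576 on the first and 56.6 on the second. Whether these 2 labels are exchanged was not tested, and it bears on every comparison with the no LIF or LIF group. The most alike of the 36 pairs of arrays were DETA/NO replicate 3 and no LIF replicate 1 (r = 0.977), which come from different conditions and passages.

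No member passed the test in any comparison. The test was a limma fit over 29811 probe sets on log2(signal + 3), which included 20 of the 21 member probe sets and all 9 genes, with adjusted p under 0.05 as the call. The probe set left out as too dim belongs to Bmpr1a and read 0.245 to 3.16. Limma called 0 of 29811 probe sets (0%) in each of the 3 comparisons. At an unadjusted p under 0.05 the share of all probe sets was 5.02% for DETA/NO against no LIF, 1.54% for no LIF against LIF and 1.94% for DETA/NO against LIF. Among the 20 member probe sets the counts at that level were 0, 2 and 2 in the same order. The comparisons share arrays with each other, so their values are given side by side and are not independent. Log2 differences understate the change of dim probe sets, because of the 3 added to each signal. In bulk RNA, fewer cells expressing a gene and less RNA per cell cannot be told apart.

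**Figure D1:**
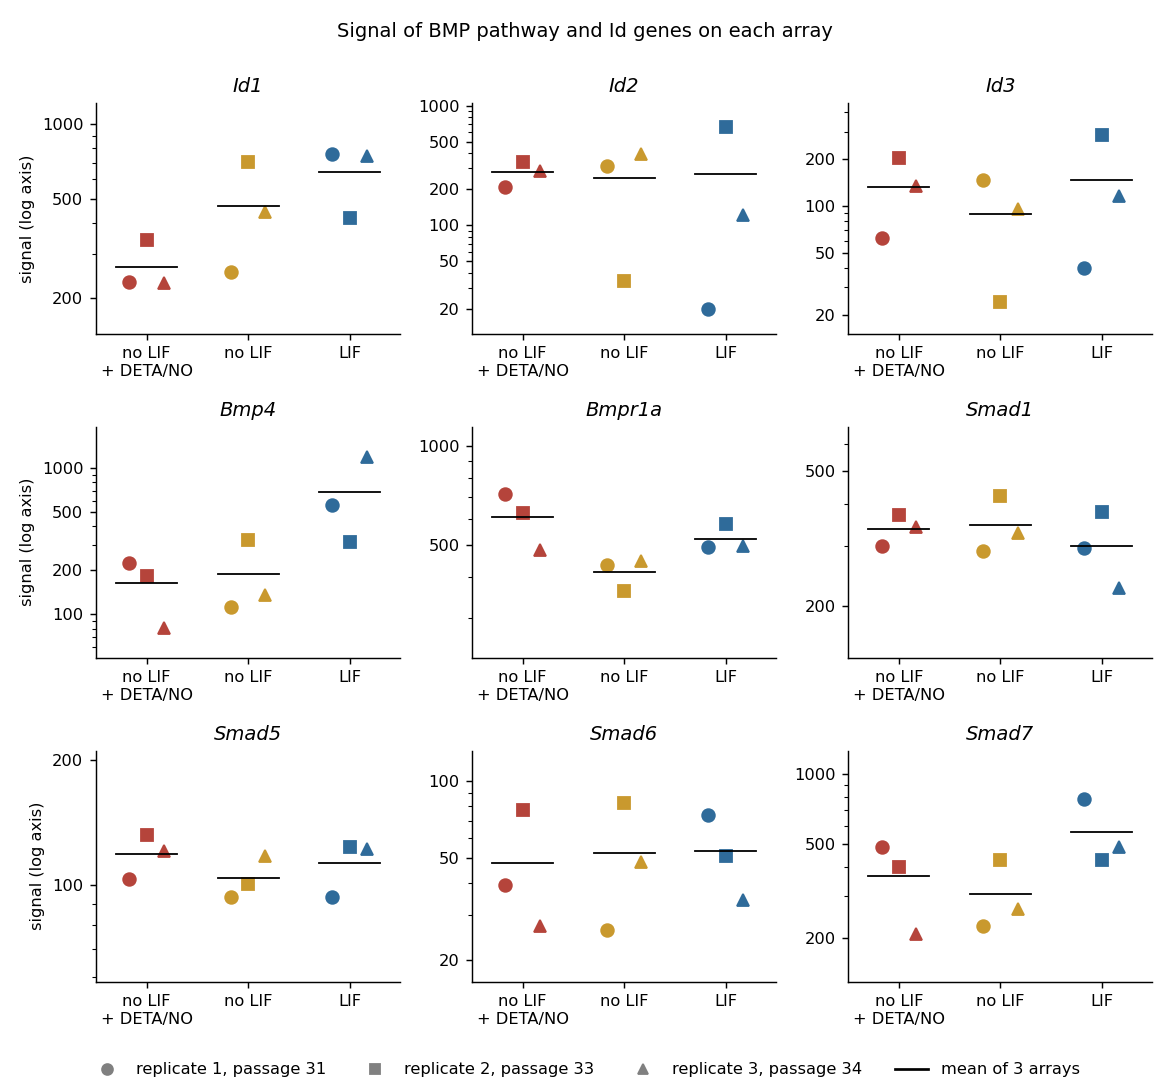
Signal of the brightest probe set of each gene on every array (log axis, arbitrary units), with DETA/NO, no LIF and LIF from left to right; symbols mark the replicate, and bars mark the mean of 3 arrays. Id2 ran from 19.7 to 660.1 within the LIF group alone, whereas Smad5 stayed between 93.3 and 132 over all 9 arrays.

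Bmp4, the ligand among the members, had the widest gap between the groups. Its signal was 224, 183 and 80.9 on DETA/NO replicates 1 to 3, 112, 322 and 135 on no LIF replicates 1 to 3, and 561, 313 and 1197 on LIF replicates 1 to 3. All 3 DETA/NO arrays lay below all 3 LIF arrays. The no LIF and LIF groups overlapped, because the array labelled no LIF replicate 2, at 322, lay just above the one labelled LIF replicate 2, at 313. The mean signal was 163 ± 73.8 with DETA/NO, 189.8 ± 115 without LIF and 690.3 ± 456 with LIF (SD, n = 3 each).

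Bmp4 stood at a log2 difference of -1.97 for DETA/NO against LIF (SE 0.60, 95% interval -3.29 to -0.65), with an unadjusted limma p of 0.0073 and an adjusted p of 1.00. For no LIF against LIF it was -1.79 (SE 0.60, interval -3.11 to -0.47), with limma p values of 0.0124 unadjusted and 0.973 adjusted. DETA/NO against no LIF differed by -0.18 (SE 0.60, interval -1.50 to 1.14). At passages 31, 33 and 34 the difference from LIF was -1.31, -0.76 and -3.84 with DETA/NO. Without LIF it was -2.29, 0.04 and -3.12, so passage 33 stood near 0. Leaving out the arrays labelled replicate 2 of the no LIF and LIF groups gave -2.71 for no LIF against LIF (limma adjusted p = 0.553). Leaving out the alike pair gave -1.50, and neither omission brought a call.

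Markers of parietal and primitive endoderm were highest on the array where Bmp4 was highest, LIF replicate 3. The summed signal of these 9 markers was 2328 to 5173 on DETA/NO arrays, 2394 to 7257 on no LIF arrays and 5103 to 16824 on LIF arrays. Gata6 and Pdgfra, which define that lineage, read 439 and 509 on LIF replicate 3 and 32.9 to 129 and 23.3 to 109.6 on the other 8 arrays. Of the 9 markers, 9 were tested, 9 lay lower on average on DETA/NO arrays than on LIF arrays, and 0 were called. Markers of mesoderm and streak were highest on the 2 arrays of lowest Bmp4 signal, with a sum over 6 genes of 857 on DETA/NO replicate 3 and 852 on no LIF replicate 1, against 83.0 to 422 on the other 7 arrays. These 2 arrays, the alike pair, were also the lowest for Smad7 and among the 3 lowest for Id1. Eomes, a defining gene of that list, read 519 and 522 there and 39.9 to 153 elsewhere, while Tbx6 and Kdr did not exceed 19.6. Of the 6 genes, 5 lay higher on DETA/NO arrays than on LIF arrays and 3 higher on no LIF arrays than on LIF arrays, and 0 were called. The part of either lineage in the Bmp4, Smad7 and Id1 results was not tested. Without LIF replicate 3 the Bmp4 difference was -1.29 for no LIF against LIF and -1.47 for DETA/NO against LIF.

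Bmpr1a encodes a type I BMP receptor. Its brightest probe set read 717, 628 and 482 on DETA/NO replicates 1 to 3, 435, 363 and 446 on no LIF replicates 1 to 3, and 492, 580.2 and 496 on LIF replicates 1 to 3. The no LIF arrays were the 3 lowest, below every array of both other groups. The mean was 609 ± 119 with DETA/NO, 415 ± 45.5 without LIF and 523 ± 49.6 with LIF (SD, n = 3 each).

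Against no LIF, Bmpr1a was higher with DETA/NO by 0.54 on the log2 scale (SE 0.30, interval -0.12 to 1.20), with a limma adjusted p of 0.929. The sign was the same at passages 31, 33 and 34, at 0.72, 0.79 and 0.11. In 4 of 4 other tested probe sets it was the same on average, at 0.11 to 0.43, but not at every passage. The first of these gave -0.26, -0.33 and 0.92 at passages 31, 33 and 34. Another gave -0.67 at passage 31, and a further one -0.21 at passage 34. All remaining passage values of the 4 were positive. No LIF stood at -0.33 against LIF (SE 0.30, adjusted p = 0.973 in limma), and the 4 other probe sets lay between -0.98 and -0.06. Against LIF, DETA/NO differed by 0.20 (SE 0.30), and 2 of the 4 other probe sets took the opposite sign. DETA/NO replicates 1 and 2, with the 2 highest Bmpr1a signals, are also among the 3 arrays of highest median. With array brightness as a block the DETA/NO difference from no LIF was 0.42, and with each array centred on its median it was 0.31.

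Member probe sets whose groups did not overlap were counted against all probe sets. For DETA/NO against no LIF they were 4 of 20 (20%), where 8.92% of all probe sets did not overlap (6.4% higher and 2.52% lower). They were 2 probe sets of Bmpr1a and 1 of Smad5, higher with DETA/NO, and 1 of Smad1, lower. For no LIF against LIF they were 2 of 20 (10%), both of Bmpr1a and both lower without LIF, where the share over all probe sets was 7.6% (2.88% higher and 4.72% lower). For DETA/NO against LIF they were 3 of 20 (15%), Bmp4, Id1 and 1 probe set of Bmpr1a, all lower, where the share over all was 5.98% (2.79% higher and 3.19% lower). Probe sets of 1 gene are not independent, and for no LIF against LIF the members' share lies close to that of all probe sets.

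Smad1 and Smad5 carry the BMP signal to the nucleus. Smad1 read 301, 370.1 and 342 on DETA/NO replicates 1 to 3, 290.5, 420.5 and 328 on no LIF replicates 1 to 3, and 296, 377 and 226 on LIF replicates 1 to 3. Smad5 read 103, 132 and 121 on DETA/NO replicates 1 to 3, 93.6, 100.3 and 117 on no LIF replicates 1 to 3, and 93.3, 123 and 122 on LIF replicates 1 to 3. The groups overlapped for both genes at these probe sets, and Smad5 had the narrowest range of the 9 genes on the log2 scale.

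DETA/NO against no LIF differed by -0.02 for Smad1 (SE 0.33, interval -0.76 to 0.71) and by 0.19 for Smad5 (SE 0.33, interval -0.54 to 0.92). Without LIF the differences from LIF were 0.22 for Smad1 (SE 0.33) and -0.11 for Smad5 (SE 0.33), with limma adjusted p of 0.973 and 0.975. With DETA/NO the differences from LIF were 0.20 and 0.07, with the same standard errors. The other probe sets did not all take the same sign. For Smad1, 1 of 2 did in each comparison, and the brighter of the 2, at 178 to 238 on DETA/NO arrays and 261 to 292 on no LIF arrays, was the one with groups that did not overlap. The brightest Smad1 probe set carries an _s_at identifier, the platform's mark for probes shared between transcripts.

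Smad7, an inhibitory Smad that also dampens TGF-beta signalling, read 488, 402 and 207 on DETA/NO replicates 1 to 3, 223, 431 and 264 on no LIF replicates 1 to 3, and 786, 429 and 488 on LIF replicates 1 to 3. The LIF arrays included the highest signal, and the no LIF array of 431 lay between them. Without LIF the mean was 306 ± 109.8, against 568 ± 191 with LIF (SD, n = 3 each). The log2 difference was -0.89 (SE 0.43, interval -1.84 to 0.06), with a limma adjusted p of 0.973. At passages 31, 33 and 34 it was -1.80, 0.00 and -0.88. Without both arrays labelled replicate 2 it was -1.34 (limma adjusted p = 0.553).

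For DETA/NO against LIF the Smad7 difference was -0.67 (SE 0.43, interval -1.62 to 0.29), and against no LIF it was 0.23 (SE 0.43). The first was -0.30 without DETA/NO replicate 3 and -0.41 without LIF replicate 1. Its second probe set gave -0.63 against LIF and -0.15 against no LIF, of opposite sign in the second case. Smad6, which is more selective for BMP signalling, was dim, at 39.4, 77.4 and 27.0 on DETA/NO replicates 1 to 3, 26.3, 82.3 and 48.4 on no LIF replicates 1 to 3, and 74.1, 50.9 and 34.4 on LIF replicates 1 to 3. All 3 groups overlapped throughout, and the Smad6 differences were -0.11, -0.09 and -0.20 (SE 0.53 each) for DETA/NO against no LIF, no LIF against LIF and DETA/NO against LIF.

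Id1 had its lowest signals with DETA/NO. It read 231, 343 and 229.6 on DETA/NO replicates 1 to 3, 254, 705 and 442 on no LIF replicates 1 to 3, and 763, 420.0 and 744 on LIF replicates 1 to 3. All DETA/NO arrays lay below all LIF arrays, while the no LIF arrays reached into both ranges. The mean was 268 ± 64.8 with DETA/NO, 467 ± 227 without LIF and 642 ± 193 with LIF (SD, n = 3 each).

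The Id1 difference between DETA/NO and LIF was -1.23 (SE 0.43, interval -2.18 to -0.27), with limma p values of 0.0166 unadjusted and 1.00 adjusted. It was -1.71, -0.29 and -1.68 at passages 31, 33 and 34. DETA/NO against no LIF gave -0.70 (SE 0.43, interval -1.66 to 0.25), and -0.14, -1.04 and -0.94 at those passages. No LIF against LIF gave -0.53 (SE 0.43, interval -1.48 to 0.43), with passage values of -1.57, 0.74 and -0.75. Without the arrays labelled replicate 2 of the no LIF and LIF groups these became -1.51 for DETA/NO against LIF, -0.35 for DETA/NO against no LIF and -1.16 for no LIF against LIF. Without no LIF replicate 1 and DETA/NO replicate 3 the last was -0.15.

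Id2 varied most of the members. Its brightest probe set read 208, 338 and 283 on DETA/NO replicates 1 to 3, 314, 33.9 and 398 on no LIF replicates 1 to 3, and 19.7, 660.1 and 122 on LIF replicates 1 to 3. The highest and the lowest array were both LIF arrays, so the groups overlapped. The spread within the no LIF and LIF groups exceeded the differences between means, at 276 ± 65.1 with DETA/NO, 248 ± 190.5 without LIF and 267 ± 344 with LIF (SD, n = 3 each).

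The Id2 log2 differences were 0.71 for DETA/NO against no LIF (SE 1.14, interval -1.81 to 3.23), 0.44 for no LIF against LIF (SE 1.14, interval -2.08 to 2.96) and 1.15 for DETA/NO against LIF (SE 1.14, interval -1.37 to 3.67). At passages 31, 33 and 34, no LIF against LIF gave 3.80, -4.17 and 1.68, so passage 33 ran the other way. Without the arrays labelled replicate 2 of these 2 groups, Id2 stood at 2.74 for no LIF against LIF (limma adjusted p = 0.553) and at 2.36 for DETA/NO against LIF (adjusted p = 0.659). DETA/NO against no LIF turned to -0.38. A second Id2 probe set, at 26.5 to 238, was likewise lowest on no LIF replicate 2 and LIF replicate 1. The third was dim, at 7.46 to 39.6, and was lowest on LIF replicate 3.

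Id3 read 61.9, 204 and 135 on DETA/NO replicates 1 to 3, 147, 24.1 and 95.7 on no LIF replicates 1 to 3, and 39.8, 288 and 116 on LIF replicates 1 to 3. As with Id2, LIF replicate 2 was highest, and no LIF replicate 2 and LIF replicate 1 were the 2 lowest. The differences were 0.74 for DETA/NO against no LIF (SE 0.80, interval -1.02 to 2.50), -0.63 for no LIF against LIF (SE 0.80, interval -2.39 to 1.13) and 0.11 for DETA/NO against LIF (SE 0.80, interval -1.65 to 1.87). Their limma adjusted p were 0.947, 0.973 and 1.00. No LIF against LIF turned to 0.77 without the 2 arrays labelled replicate 2 (adjusted p = 0.667 in limma), and the other 2 differences became 0.014 and 0.78.

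**Figure D2:**
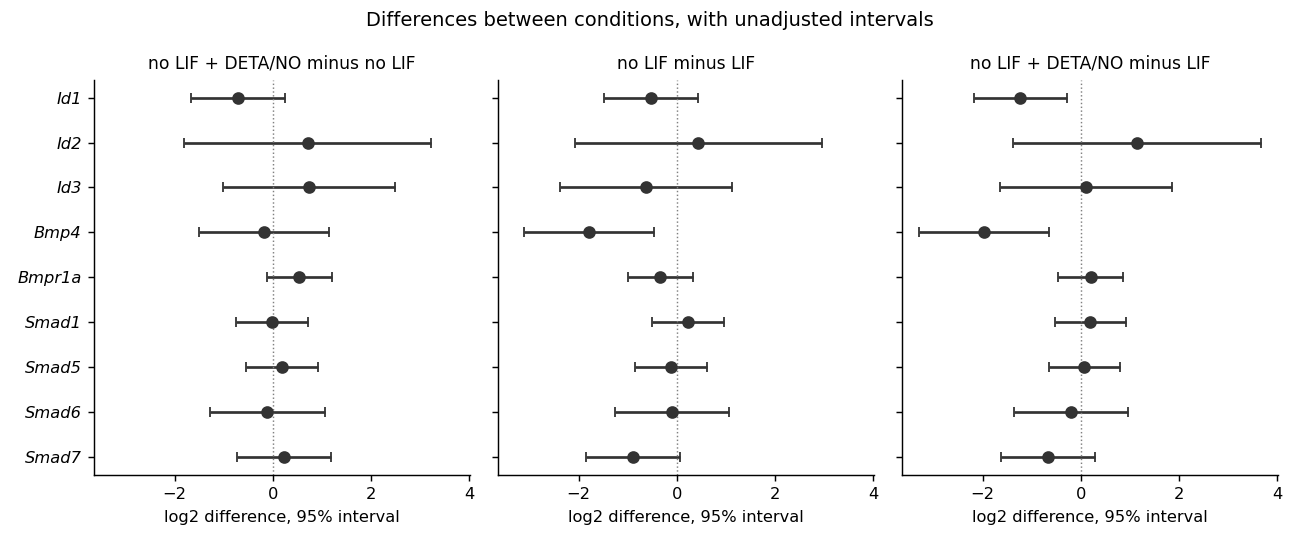
Log2 difference of each gene in the limma fit (points) with its unadjusted 95% interval (bars) for DETA/NO minus no LIF, no LIF minus LIF and DETA/NO minus LIF, from left to right. The intervals of Bmp4 in the 2 comparisons with LIF, and of Id1 for DETA/NO minus LIF, lie below 0, and no adjusted p was under 0.05.

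The 3 Id genes did not vary as 1 group. Over the 9 arrays, Id2 and Id3 had a Pearson r of 0.865 on log2 signals (exact permutation p = 0.00293, adjusted p = 0.104 over 36 pairs of members) and a Spearman coefficient of 0.783 (permutation p = 0.0172). Without the 2 arrays farthest from the Id2 median, LIF replicate 1 and no LIF replicate 2, r was 0.623 over 7 arrays (exact permutation p = 0.123). Those 2 arrays hold the lowest Id2 signals, so their omission narrows the range of Id2. Within the 6 arrays of lower median signal r was 0.903 (exact permutation p = 0.0153).

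Id1 ran against Id2, with r of -0.672 (exact permutation p = 0.0483, adjusted p = 0.336) and a Spearman coefficient of -0.433 (permutation p = 0.250). Without LIF replicate 1 and DETA/NO replicate 3, r was -0.564 (exact permutation p = 0.190), and within the 6 dimmer arrays it was -0.616. Id1 and Id3 gave r of -0.457 (exact permutation p = 0.217, adjusted p = 0.515), a Spearman coefficient of -0.433, and r of -0.307 without the same 2 arrays and -0.507 within the 6 dimmer arrays. On LIF replicates 1 and 3 and no LIF replicate 2, Id1 had its 3 highest signals and Id2 its 3 lowest.

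Id1 and Bmp4 gave r of 0.809 (exact permutation p = 0.00732, adjusted p = 0.104), with 0.715 without LIF replicate 1 and DETA/NO replicate 3 (exact permutation p = 0.0591) and 0.860 within the 6 dimmer arrays. For Bmp4 and Smad7 r was 0.808 (exact permutation p = 0.00868, adjusted p = 0.104), with 0.933 without LIF replicate 3 and DETA/NO replicate 3 and 0.920 within the 6 dimmer arrays. The Spearman coefficients of these 2 pairs were 0.817 and 0.867, with permutation p of 0.0108 and 0.00451. Of the 36 pairs, 4 had an unadjusted p under 0.05 and 0 an adjusted one. These permutations exchanged arrays between conditions, so a difference between conditions that 2 genes share can add to r. The same 4 pairs were read on deviations from the group means, permuted within groups. Id1 and Bmp4 gave r of 0.728 and Bmp4 and Smad7 0.686 (permutation p = 0.0694 each). Id2 and Id3 gave 0.929 (permutation p = 0.0139), and Id1 and Id2 -0.703 (permutation p = 0.208).

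**Figure D3:**
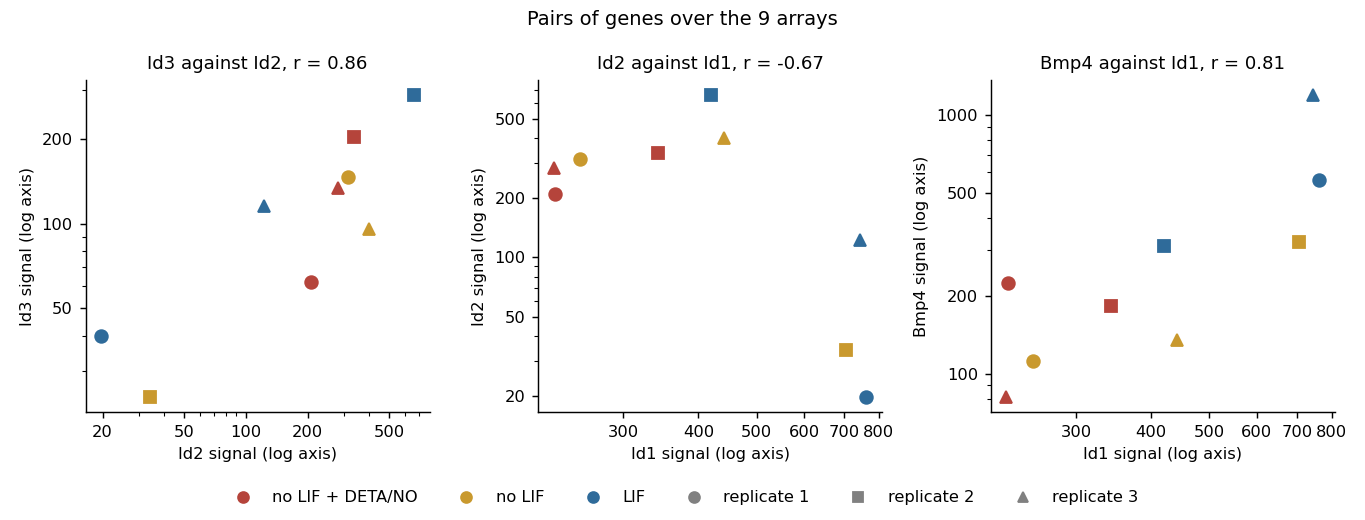
Signals of 3 pairs of genes on the 9 arrays (log axes, arbitrary units), with colours for DETA/NO, no LIF and LIF and symbols for the replicate; r is Pearson's on log2 signals. LIF replicate 1 and no LIF replicate 2 lie at the low end of both Id2 and Id3, and at the high end of Id1.

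The genes most like Id1 were named by Pearson r of log2 signal over the 9 arrays, among 13367 other genes tested. They were Il27ra (r = 0.987), a cytokine receptor subunit, Fam20a (0.982), a secretory-pathway pseudokinase, Prr13 (0.980), Tnip2 (0.969), an inhibitor of NF-kappaB signalling, and Socs3 (0.963). Il27ra was dim, at 2.08 to 9.15 on DETA/NO arrays, 5.08 to 44.3 on no LIF arrays and 16.2 to 56.6 on LIF arrays. Fam20a was dimmer, at 1.34 to 5.12, 1.57 to 26.9 and 5.70 to 31.0 in the same groups. It reached its array's 40th percentile, the bar for testing, only on no LIF replicate 2 and LIF replicates 1 and 3. Id1 was highest on those same arrays, so the r of Fam20a is in part set by the filter. Prr13 read 119 to 201 on DETA/NO arrays, 150.2 to 609 on no LIF arrays and 283 to 526 on LIF arrays. The Socs3 values fall into separate sets, so r with Socs3 is given only as the measure of likeness.

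Id1 and Socs3 can be set side by side. On LIF replicates 1 and 3 and no LIF replicate 2, Id1 read 763, 744 and 705 where Socs3 read 3213, 1794 and 3054. On the other 6 arrays Id1 was 229.6 to 442 and Socs3 95.8 to 405. Klf4, a pluripotency factor that LIF induces, read 1368, 625 and 233 on DETA/NO replicates 1 to 3, 197, 2542 and 698 on no LIF replicates 1 to 3, and 2482, 1062 and 1863 on LIF replicates 1 to 3, so its 3 highest signals were on those same arrays.

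Keratin genes of the trophoblast list were lowest where Id2 and Id3 were lowest. The summed signal of the 7 genes of this list, of which 6 were tested, was 3924 to 14078 on DETA/NO arrays. It was 870 on no LIF replicate 2 and 3480 and 11467 on the other two, and 773 on LIF replicate 1 against 11529 and 5712 on LIF replicates 2 and 3. Krt18 read 208 on no LIF replicate 2 and 159.7 on LIF replicate 1, and 1536 to 6569.5 on the other 7 arrays. Krt18 and Krt8 had the highest signals in the sum, and other genes of the list followed less closely. Hand1 was lowest on no LIF replicate 2, at 18.5, but read 31.7 on LIF replicate 1. Tfap2c was lowest on LIF replicate 1, at 130, but its 220 on no LIF replicate 2 lay above DETA/NO replicate 3, at 186. None of the 6 tested genes was called. Of the defining markers, Elf5 was not tested as too dim and Cdx2 read 1.33 to 188.8. The part of such cells in the Id2 and Id3 values was not tested. All 6 visceral endoderm markers, of which only 3 were tested, summed to 89.9 to 326 on DETA/NO arrays, 90.0 to 496 on no LIF arrays and 201 to 1168 on LIF arrays. Neuroectoderm markers, of which 5 were tested, summed to 183 to 266, 118 to 215 and 113 to 157 in these groups, and 0 of either list were called. All 7 fibroblast markers summed to 67.5 to 144 on all arrays, which includes Col3a1, Lum, Dcn and Postn, too dim to be tested.

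**Figure D4:**
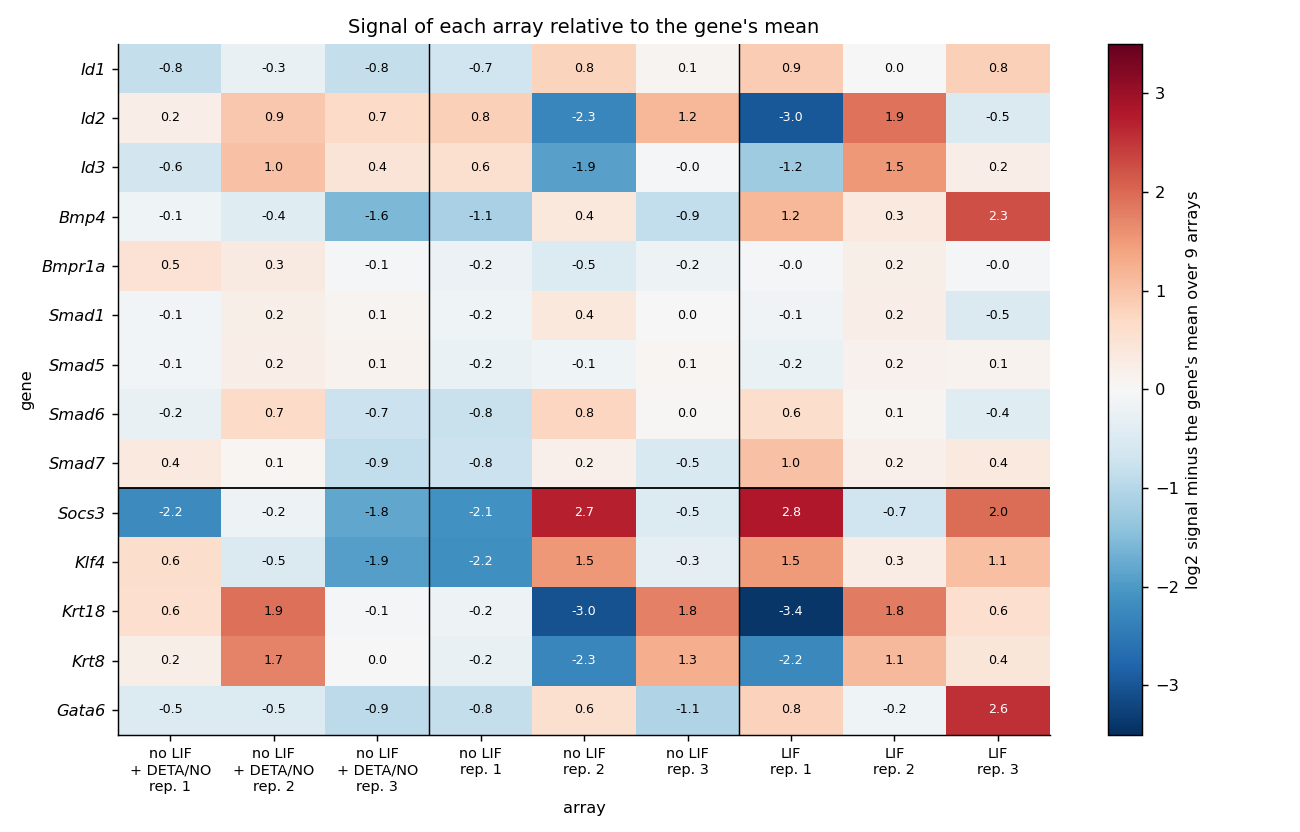
Log2 signal of each array minus the gene's mean over the 9 arrays, with the 9 members above the line and 5 other genes below it; columns run from DETA/NO through no LIF to LIF. Id1, Socs3 and Klf4 are high, and Id2, Id3, Krt8 and Krt18 are low, on no LIF replicate 2 and LIF replicate 1.

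Other genes of the pathway were read from lists chosen with earlier results of these data known. No listed gene was called in any comparison, and the medians over all 13376 genes tested were -0.02 for DETA/NO against no LIF, 0.01 for no LIF against LIF and -0.01 for DETA/NO against LIF. Each gene was read by its brightest tested probe set.

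Of 8 tested BMP ligands, 5 lay higher with DETA/NO than without it (median 0.16), 1 higher without LIF than with it (median -0.47) and 2 higher with DETA/NO than with LIF (median -0.06). With 1 array left out the first median ran from 0.00070 without DETA/NO replicate 2 to 0.49 without no LIF replicate 3, and the last reached -0.30 without DETA/NO replicate 2. Gdf3, a TGF-beta family ligand of pluripotent cells, read 315 to 962 on DETA/NO arrays, 346 to 472 on no LIF arrays and 332 to 810.0 on LIF arrays. Bmp7 read 19.6 to 97.0, 23.6 to 184 and 40.2 to 61.7 in the same groups. Both overlapped between all groups.

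Of 9 tested receptors and co-receptors, 8 lay higher with DETA/NO than with no LIF (median 0.37), 1 higher without LIF than with it (median -0.33) and 6 higher with DETA/NO than with LIF (median 0.20). With 1 array left out the first median ran from 0.11 without DETA/NO replicate 2 to 0.70 without DETA/NO replicate 3, and the second from -0.48 without no LIF replicate 3 to -0.10 without LIF replicate 1. The third was -0.15 without DETA/NO replicate 2 and 0.53 without DETA/NO replicate 3. Acvr2b and Bmpr2 are type II receptors. Acvr2b read 302 to 1293 on DETA/NO arrays, 286 to 1254 on no LIF arrays and 554 to 1027 on LIF arrays. Bmpr2 read 258 to 396 on DETA/NO arrays, 85.6 to 228 on no LIF arrays and 162 to 225 on LIF arrays, so its DETA/NO arrays were the 3 highest, without a call.

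Of 7 tested extracellular antagonists, 3 lay higher with DETA/NO than with no LIF (median -0.05), 2 higher without LIF than with it (median -0.76) and 2 higher with DETA/NO than with LIF (median -0.52). With 1 array left out the first median ran from -0.46 without no LIF replicate 1 to 0.22 without no LIF replicate 2, and the second from -1.11 without no LIF replicate 2 to -0.42 without LIF replicate 1. Fst, which encodes follistatin, an antagonist of activins and some BMPs, read 168 to 554 on DETA/NO arrays, 34.1 to 594 on no LIF arrays and 38.0 to 209 on LIF arrays. Twsg1 read 76.3 to 176, 131 to 247 and 149 to 189 in these groups. Bambi, a decoy receptor, read 61.3 to 195 on DETA/NO arrays, 73.2 to 179 on no LIF arrays and 139 to 307 on LIF arrays.

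Of 11 tested intracellular mediators, 7 lay higher with DETA/NO than with no LIF (median 0.11), 5 higher without LIF than with it (median -0.09) and 6 higher with DETA/NO than with LIF (median 0.07). With 1 array left out the first median ran from 0.030 without no LIF replicate 1 to 0.20 without DETA/NO replicate 3. The second turned to 0.074 without no LIF replicate 1, and the third to -0.11 without DETA/NO replicate 1. Smad4, the shared partner of Smad1 and Smad5, read 1352 to 1392 on DETA/NO arrays, 912 to 1461 on no LIF arrays and 894 to 1409.9 on LIF arrays. Skil, a Smad corepressor, read 847 to 1087 on DETA/NO arrays, 411 to 978 on no LIF arrays and 387 to 806 on LIF arrays. Its DETA/NO range lay above all LIF arrays and overlapped with no LIF. Ppm1a, a phosphatase that acts on Smads, read 335 to 927, 298 to 555 and 426 to 874 in these groups.

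Of 16 tested BMP target genes, which include 5 of the members, 15 lay lower without LIF than with it, with a median of -0.67, and Id2 was the exception. Over all 13376 genes tested, 6629 lay lower and 6747 higher in that comparison. The median over all 29811 probe sets was -0.10. Of the 459 with an unadjusted limma p under 0.05, 377 were lower and 82 higher. With DETA/NO, 12 of 16 lay higher than with no LIF (median 0.31) and 7 of 16 higher than with LIF (median -0.21). With 1 array left out the median ran from -0.83 without LIF replicate 3 to -0.40 without LIF replicate 2 for no LIF against LIF. Between DETA/NO and no LIF it ran from 0.057 without DETA/NO replicate 2 to 0.71 without no LIF replicate 3. Between DETA/NO and LIF it was -0.61 without DETA/NO replicate 2 and 0.030 without DETA/NO replicate 3. The no LIF median was -0.46, -1.57 and -0.09 at passages 31, 33 and 34. Passage 33, with the largest value, holds the 2 arrays labelled replicate 2 on which Socs3 goes against the labels. The count of 15 rests in part on those 2 arrays. Without them, Id3, Msx1, Gata3, Hey1 and Dlx3 also lay higher on average without LIF than with it. Hey1, for example, read 26.3 and 25.2 on no LIF replicates 1 and 3, and 17.9 and 21.0 on LIF replicates 1 and 3. Each array centred on its median gave 12 of 16 lower and -0.45, while that centring moved the median of all probe sets by 0.22. Dusp9, a phosphatase of ERK that BMP induces in these cells, read 194 to 787 on DETA/NO arrays, 186 to 1341 on no LIF arrays and 306 to 971 on LIF arrays, so its groups overlapped.

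The partners of Id proteins were the last list. Of 4 tested E proteins and proneural factors, 2 lay higher with DETA/NO than with no LIF (median -0.17), 3 higher without LIF than with it (median 0.29) and 2 higher with DETA/NO than with LIF (median 0.17). With 1 array left out the first median ran from -0.45 without DETA/NO replicate 3 to 0.11 without no LIF replicate 2, and the second fell to 0.0057 without LIF replicate 2. The third ran from -0.053 without DETA/NO replicate 3 to 0.45 without LIF replicate 1. Tcf12 read 209 to 490.1 on DETA/NO arrays, 188 to 472 on no LIF arrays and 153 to 333 on LIF arrays. Tcf4 read 224 to 504, 123 to 213 and 139.7 to 289 in these groups, and its DETA/NO arrays all lay above the no LIF arrays. Tcf3 read 115 to 209 on DETA/NO arrays, 151 to 265 on no LIF arrays and 152 to 197 on LIF arrays.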

How the data were processed

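Signal intensities were deposited by the authors for 9 arrays on a linear scale. They were made in GeneChip Operating System 1.4.0.036 and globally scaled, per the design text in the labels; MAS5 is named in the submitters' processing notes. Detection calls were not used here. Of 45101 probe sets, 34945 carry 1 gene symbol in the platform annotation, 932 several and 9160 none, beside 64 controls.

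Values were turned to log2(signal + 3), where 3 is the 20th percentile of the table, rounded. Tested probe sets reached their array's 40th percentile on 3 or more arrays. Differences came from limma 3.58.1 in R 4.3.3 (lmFit, eBayes with an intensity trend, two-sided, group as the only term, all 9 arrays), adjusted by Benjamini-Hochberg over 29811 probe sets, with a threshold of 0.05. Correlations used exact two-sided permutation tests computed with numpy 2.4.6, with ranks from scipy 1.17.1. The number of arrays limits the precision. The fit was tested on simulated data with the spread of these arrays, for no LIF against LIF. It called 0% of log2 changes of 1, 20% of changes of 2, 36% of changes of 3 and 76% of changes of 4. A missing call therefore does not show that a member is unchanged.

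The text names all members, LIF response and pluripotency checks, the 3 brightest genes of each list, since none was called, and the 5 genes most like Id1. A gene with several probe sets was read by its brightest. The members and lists were chosen with earlier results of these data known. Alternatives changed the pseudocount, filter, normalization, variance model, arrays, blocks and kind of probe set.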

Additional observations from a re-analysis of the deposited data

How the results depend on the processing

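Calls stayed at 0 in all 3 comparisons under every alternative run. Of 612 log2 differences of members recomputed over 23 settings, 573 kept their sign and 39 turned. Part of the 573 could not turn. The settings of filter, variance model, replicate block and kind of probe set leave the log2 difference itself as it was. So does leaving out an array of the group that is not compared. The smallest adjusted p of any member was 0.373 in limma. For 13 of 27 differences no setting turned the sign, among them Id1, Bmpr1a (each in all 3 comparisons), and Bmp4 and Smad7 in both comparisons with LIF. Bmp4 then ranged from -2.71 to -1.29 for no LIF against LIF and from -2.43 to -1.47 for DETA/NO against LIF. Median centring and quantile normalization moved the median of all probe sets by -0.23 and -0.15 for DETA/NO against no LIF, and by 0.22 and 0.15 for no LIF against LIF.

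The values that turned sign are grouped by setting, and the cause was not tested. With quantile normalization, no LIF against LIF gave 0.12 for Smad6 and 0.047 for Smad5. With median centring, DETA/NO against no LIF gave -0.0033 for Smad7 and -0.042 for Smad5, and no LIF against LIF gave 0.13 for Smad6 and 0.11 for Smad5. With brightness as a block, Smad7 gave -0.40 for DETA/NO against no LIF, and Smad6 and Id2 gave 0.20 and -0.19 for no LIF against LIF. Without both arrays labelled replicate 2, DETA/NO against no LIF gave 0.27 for Smad6, 0.28 for Bmp4, -0.38 for Id2 and 0.12 for Smad1, and no LIF against LIF gave 0.77 for Id3. Without the alike pair, Smad6 and Id2 gave 0.30 and -0.022 for no LIF against LIF, and Smad6 gave 0.12 for DETA/NO against LIF.

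Leaving out 1 array at a time turned further signs. For DETA/NO against no LIF the ranges were -0.47 to 0.28 for Bmp4, -0.38 to 1.34 for Id2, -0.14 to 0.12 for Smad1, -0.50 to 0.27 for Smad6 and -0.026 to 0.59 for Smad7. For no LIF against LIF they were -0.78 to 1.65 for Id2, -1.33 to 0.093 for Id3 and -0.47 to 0.30 for Smad6. For DETA/NO against LIF they were -0.074 to 2.36 for Id2, -0.60 to 0.78 for Id3, -0.054 to 0.17 for Smad5 and -0.59 to 0.12 for Smad6. The correlation of Id2 and Id3 ranged from 0.811 to 0.901 and passed the threshold without LIF replicate 3 (r = 0.883, exact permutation test, adjusted p = 0.0433). That of Bmp4 and Smad7 did so too (r = 0.951, adjusted p = 0.0259 in the same permutation test), but it fell to 0.739 without DETA/NO replicate 3. Without the alike pair it was 0.640 over 7 arrays (permutation p = 0.126). The correlation of Id1 and Bmp4 was then 0.685 (permutation p = 0.0879).

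Same-numbered arrays, which share a passage, did not vary together throughout. Correlations of their deviations from the group means ran from -0.60 (no LIF and LIF, replicate 2) to 0.65 (DETA/NO and LIF, replicate 1). The lowest value rests on the 2 arrays whose labels are in question, so whether the cultures were paired cannot be decided here. With the replicate number as a block, limma called 0, 0 and 0 probe sets, with 1602, 493 and 471 at an unadjusted p under 0.05 for DETA/NO against no LIF, no LIF against LIF and DETA/NO against LIF, against 1498, 459 and 578 without the block. With 3 arrays a group, standard errors of 0.30 to 1.14 limit what differences could be seen.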
